A study of Mus musculus with 2 samples.

Results

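The genes examined here are 43 named genes of DNA replication and mitosis, out of 21938 protein-coding genes in the mouse annotation. They were listed by name: 30 replication genes, 10 mitosis genes and 3 genes of the kinase that starts S phase (Cdk2, Ccne1 and Ccne2), which are given separately. The material was hindbrain, which holds the cerebellum, pons and medulla, from healthy B6NCrl mice of both sexes, pooled, at postnatal day 0, with no allele or treatment recorded. Open chromatin was mapped by DNase-seq, in which DNase I cuts DNA that is not shielded by nucleosomes and the cut ends are sequenced, in 2 biological replicates that make up 1 group. The replicates were separate tissue samples that share 1 donor entry in the labels, which give no number of animals. With 1 group there is no contrast between conditions and no test was run, so all values are descriptions of these 2 libraries. In bulk tissue, fewer cells of a type and less open chromatin per cell cannot be told apart.

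Before S phase the origin recognition complex, Cdc6 and Cdt1 load the Mcm helicase onto DNA. Cdc45, the GINS complex and Mcm10 then turn it on, and primase, the polymerases, the Pcna clamp and its loader copy the strands. Mitosis is driven by Cdk1 with its cyclins and by the Plk1 and Aurora kinases. In the hindbrain around birth, granule cell precursors of the cerebellum are a large dividing population. In textbook accounts E2F factors act on promoters of replication genes in late G1, whereas the DREAM and MuvB complexes act through the cell cycle homology region (CHR), often beside CCAAT boxes bound by NF-Y, on promoters of mitosis genes.

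The deposited lists held 271150 and 172002 peaks for replicates 1 and 2, and 270757 and 171790 of them on the main chromosomes were used. Read depth is unknown, because the tables hold regions and no read counts. Each peak carries the authors' score, a whole number from 1 to 150 whose scaling is not stated. It is used here only to describe and rank peaks within a list, as a percentile of all peaks of that replicate. The median score of a list was 45 in replicate 1 and 38 in replicate 2. Among markers of region, 11 of 12 hindbrain genes were open at the promoter in both replicates, against 1 of 6 forebrain genes (Emx2). The hindbrain gene without one in both was Ptf1a, which had a peak in replicate 1 alone. Of the 7 markers of granule cell precursors all 7 did, among them Atoh1 with scores of 93 and 71 and Mycn with 132 and 114.

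A promoter peak was counted within 500 bp of any annotated start site of a gene. All 43 members had one in both replicates, 30 of 30 replication genes, 10 of 10 mitosis genes and 3 of 3 S-phase entry genes. The share over all protein-coding genes was 66.3%, and over the genes in deciles 9 and 10 of promoter CpG content it was 98.1%. The members' promoters were mostly rich in CpG, by the observed over expected ratio around the gene's 5′ end (500 bp on each side). Its median was 0.762 in replication genes and 0.827 in mitosis genes, against 0.552 over all protein-coding genes. Over the genes with a promoter peak in both replicates the median was 0.703. The members ranged from 0.145 to 0.968. Of the 43 members, 19 stood in those 2 highest deciles. For these 19 the count reads against a background close to full. Deciles 6, 7 and 8 held 6, 5 and 9 members, and 90.74%, 95.26% and 97.04% of their genes had peaks in both replicates. Gins1 and Cdk1 stood in decile 5 (78.76%) and Orc4 in decile 3 (29.17%). Rfc2 stood in decile 2, where the share was lower still. These deciles describe the outermost 5′ end, while the highest peaks of Orc4, Rfc2 and Gins1 lay at inner start sites. At the start site nearest to the highest peak of replicate 1 their ratios were 0.565, 0.659 and 0.725. Measured there, all members ranged from 0.526 to 0.968. Their median was 0.785, against 0.729 over the genes with a promoter peak in both replicates. Deciles at that site were not computed.

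The peaks also stood high in their lists. All 43 members had a percentile of at least 90 in each replicate. The share reaching 90 was not computed over the 14541 protein-coding genes with a promoter peak in both replicates, called open promoters below. Their medians were 97.1 in replicate 1 and 95.4 in replicate 2, with lower quartiles of 93.4 and 86.9, so most of them reached 90 too. Over these open promoters the median of the mean percentile was 96.3 with a lower quartile of 90.1. The median was 98.4 in replication genes (range 92.9 to 99.8) and 97.3 in mitosis genes (range 95.0 to 99.4). It was 97.8 in the genes of CpG deciles 9 and 10. The difference between replication and mitosis genes, 1.08 percentile points, was 0.622 in replicate 1 alone and 1.30 in replicate 2 alone, and the range of the mitosis genes lay within that of the replication genes. The difference was 4.58 points when all peaks of a promoter were averaged, and 0 when hotspots, the authors' broader regions, took the place of peaks. With the open promoters divided into 4 equal groups by percentile, from lowest to highest, 0, 3, 12 and 15 replication genes and 0, 2, 4 and 4 mitosis genes fell in each.

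**Figure D1:**
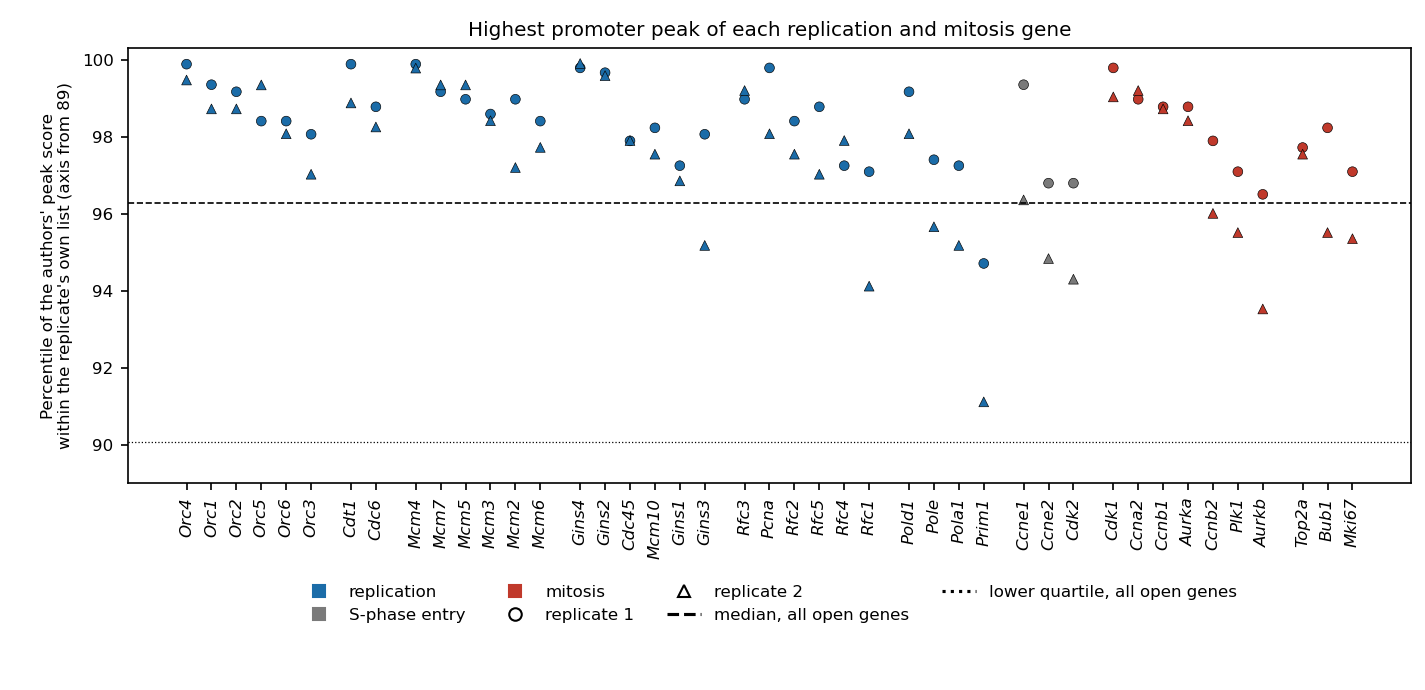
Percentile of the highest promoter peak of each of the 43 members within the peak list of replicate 1 (circles) and replicate 2 (triangles), ordered by role; the vertical axis starts at 89, the dashed line is the median of all open promoters (96.3) and the dotted line their lower quartile (90.1). Most replication genes lie above the dashed line in both replicates, and Prim1 is the lowest member.

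In the origin recognition complex, which marks origins, the median of the mean percentile was 98.9. Orc4, the highest of its 6 subunits, scored 146 in replicate 1 and 134 in replicate 2. Orc3, with scores of 135 and 119, was the lowest subunit in both replicates. Orc1, the largest subunit and an ATPase, scored 142 and 129. Orc2 (141 and 129), Orc5 (137 and 133) and Orc6 (137 and 125) lay between. Of the helicase loaders, Cdt1 scored 146 and 130 and Cdc6 139 and 126.

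The 6 subunits of the Mcm helicase had a median of 98.8. Mcm4 was the highest, with scores of 146 and 137 at chr16:15637396-15637545 in replicate 1 and at chr16:15637436-15637585 in replicate 2. Mcm6 was the lowest at 137 and 123. The other subunits were close together, Mcm7 with 141 and 133, Mcm5 with 140 and 133, Mcm3 with 138 and 127, and Mcm2 with 140 and 120. All 6 stood above the median of open promoters in both replicates. Mcm7 was the one member of the 43 whose highest peaks did not overlap between the replicates: their centres lay 820 bp apart, at chr5:138171916-138172065 in replicate 1 and chr5:138171096-138171245 in replicate 2.

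Among the genes that activate the helicase, Gins4 had the highest mean percentile of all 43 members. It scored 145 in replicate 1 and 139 in replicate 2, at the same interval, chr8:23237696-23237845, centred 111.5 bp upstream of its start site (coordinates are of mm10). Its mean percentile was above that of 98.6% of open promoters. The 4 GINS subunits form 1 complex, yet their peaks spread widely: Gins2 scored 144 and 135, Gins1 130 and 118, and Gins3 135 and 108. Cdc45, which joins GINS on the helicase, scored 134 and 124, and Mcm10, an initiation factor, 136 and 122.

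Pcna, the sliding clamp, scored 145 and 125. In the clamp loader Rfc3 was the highest subunit at 140 and 132 and Rfc1, the largest subunit, the lowest at 129 and 102. Rfc2 (137 and 122), Rfc5 (139 and 119) and Rfc4 (130 and 124) were between them. The polymerase and primase genes had the lowest median of the replication roles, 96.4, close to that of all open promoters. Pold1, the catalytic subunit of the polymerase that copies mainly the lagging strand, scored 141 and 125, and Pole, its counterpart on the leading strand, 131 and 111. Pola1, of the polymerase that starts each new strand, scored 130 and 108. Prim1, the primase subunit that makes the RNA primer, was the lowest member, with scores of 114 and 89 at chr10:128015096-128015245 in both replicates. The Prim1 percentiles of 94.7 and 91.1 left 31.0% of open promoters below it on the mean.

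The 3 genes of the S-phase entry kinase had a median of 95.8. Ccne1, a cyclin E, scored 142 and 115, and Ccne2, the other cyclin E, 127 and 106. Cdk2, their kinase partner, scored 127 and 103. All 3 had a lower percentile in replicate 2, as did 35 of 43 members and 84.9% of open promoters.

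In mitosis genes the 7 cyclins and kinases had a median of 98.6. Cdk1, the kinase that drives entry into mitosis, was the highest with 145 and 131 at chr10:69352936-69353085 in both replicates, and was the only mitosis gene among the 5 highest members. Ccna2, a cyclin that acts in S phase and mitosis, scored 140 and 132. The B cyclins differed from each other: Ccnb1 scored 139 and 129 and Ccnb2 134 and 113. Aurka, the kinase of centrosomes and the spindle, scored 139 and 127, and Aurkb, the kinase of the chromosomal passenger complex, was the lowest of the group at 125 and 99. Plk1, which acts at several steps of mitosis, scored 129 and 110.

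The 3 remaining mitosis genes had a median of 96.9. Top2a, the topoisomerase that untangles sister chromatids, was the highest at 133 and 122. Bub1, a kinase of the spindle checkpoint, scored 136 and 110. Mki67, a protein of the surface of mitotic chromosomes used as a proliferation marker, was the lowest at 129 and 109. By the mean percentile, 22 of 43 members reached 98 or more, against 29.4% of all open promoters and 46.1% of those in CpG deciles 9 and 10. They were 18 of 30 replication genes and 4 of 10 mitosis genes.

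The score was higher in replicate 1 than in replicate 2 in 43 of 43 members, by 4 to 27 units with a median of 14. The same held in 99.1% of all open promoters, with a median of 18, so scores are compared only within a replicate. The order of the members was similar in the 2 lists, with a Spearman's rho of 0.827 over the 43 genes, which share their libraries and lie in a narrow range. Over all 14541 open promoters rho was 0.937. In 22 of 43 members the highest peak had the same position in both replicates, and in 42 of 43 the peaks overlapped. These shares were not computed over all open promoters, so they describe the members only.

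The open stretch lay mostly just upstream of the start site, as it did in most open promoters. In replication genes the median distance of the peak centre from the nearest start site was −59.5 bp in replicate 1 and −41.0 bp in replicate 2. In mitosis genes it was −70.5 and −76.5 bp, and over all open promoters −33.5 and −36.5 bp. Upstream centres were found in 25 and 23 of 30 replication genes and in 9 and 9 of 10 mitosis genes, against 73.8% and 74.5% of open promoters. Ccna2 was the mitosis gene with a downstream centre, at 19.5 bp in both replicates. Mki67 had the centre farthest upstream in both, at −189.5 and −169.5 bp. The classes overlapped in position.

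**Figure D2:**
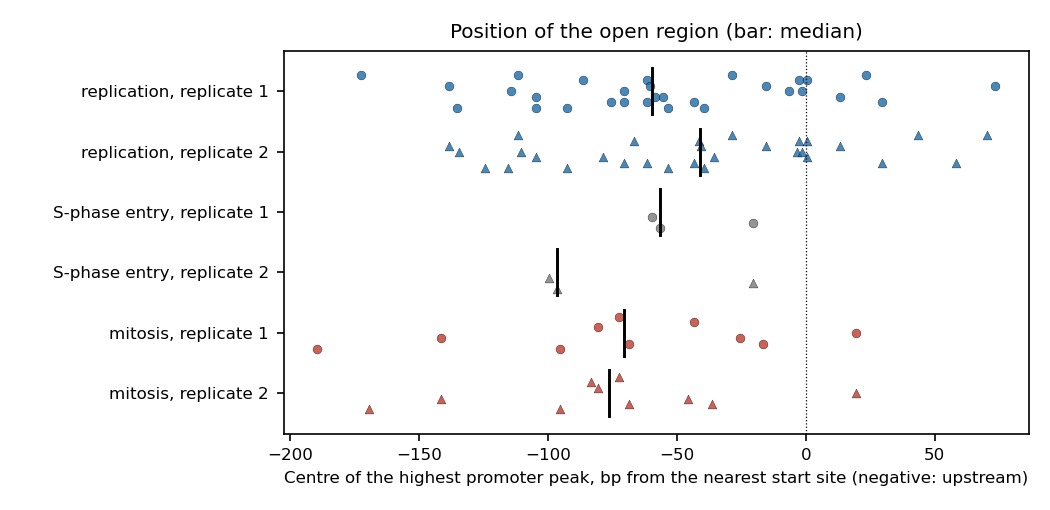
Centre of the highest promoter peak of each member, in bp from its nearest start site (negative is upstream), by class and replicate; the black bar is the class median. The medians are −59.5 and −41.0 bp in replication genes and −70.5 and −76.5 bp in mitosis genes, with overlapping spreads.

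In a few members the highest peak lay at an inner start site. In replicate 1 the highest peak lay more than 500 bp from the outermost 5′ end of 3 of 43 genes, Orc4 (886.5 bp), Rfc2 (1324.5 bp) and Gins1 (4210.5 bp). In replicate 2 Mcm7 joined them. The share of all open promoters with such a peak was not computed. With the 5′ end of the gene as its only start site, 28 of 30 replication genes kept a promoter peak in both replicates, all but Gins1 and Rfc2, as did 10 of 10 mitosis genes. In that setting the share over all protein-coding genes was 60.7%. The hotspots of all 43 members reached the cap of 100 of the authors' −log10 q in both replicates, against 96.1% and 88.7% of open promoters with a hotspot, so hotspot values could not order them. A second peak was found in the windows of 32 of 43 members in replicate 1 and 17 of 43 in replicate 2, against 75.1% and 63.9% of open promoters.

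Promoter sequences from 250 bp before to 50 bp after the start site came from RefSeq (GRCm38.p6, the mm10 build) and matched 34 members: 24 replication, 8 mitosis and 2 S-phase entry genes. Aurkb, Ccna2, Ccne2, Gins1, Gins2, Gins4, Mcm4, Pole and Rfc2 are named only. A gene counted if any of its windows held a match on either strand. Of the 34 members, 3 had more than 1 window (8.82%), against 16.2% of the 16522 protein-coding genes in the table. The motifs were E2F (TTCCCGC or TTGGCGC), CHR (TTTGAA or TTCGAA), NF-Y (CCAAT), Sp (GGGCGG), ETS (CCGGAAG) and NRF1 (GCGCA followed directly by its reverse complement, TGCGC). A match describes letters in a window and is not evidence of binding.

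The classes differed in which of these letters their promoters held. E2F letters stood in 15 of 24 replication genes (62.5%) and 3 of 8 mitosis genes, Ccnb1, Cdk1 and Mki67, against 10.3% of all promoters. That order turned with a shorter E2F core, without the leading TT, which 21 of 24 replication genes and 8 of 8 mitosis genes held, against 68.6% of all promoters. CHR letters were found in 7 of 8 mitosis genes (all but Ccnb1) and 5 of 24 replication genes (Cdc45, Gins3, Mcm2, Mcm7 and Rfc3), against 19.4% of all promoters. The replication share, 20.8%, was thus near the background. CCAAT was found in 8 of 8 mitosis genes and 17 of 24 replication genes, against 42.1%. Both CCAAT and CHR letters stood in 7 of 8 mitosis genes and 5 of 24 replication genes, against 9.02%. Among the promoters in the table with peaks in both replicates the shares were 13.9% for E2F, 16% for CHR and 42.8% for CCAAT.

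**Figure D3:**
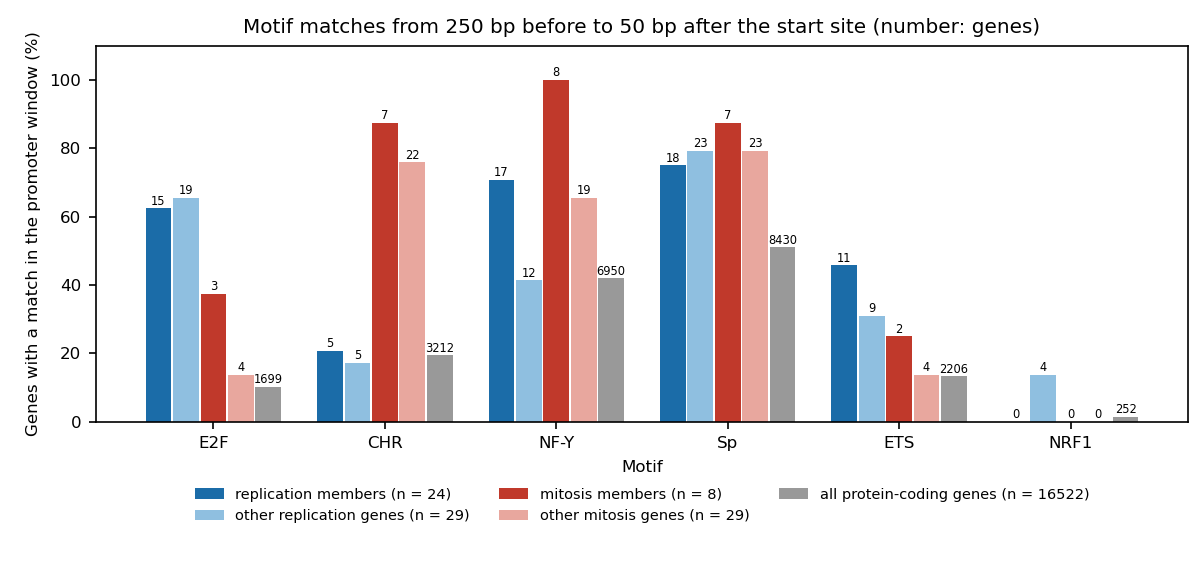
Percentage of genes whose promoter window, from 250 bp before to 50 bp after the start site, holds each motif, for replication and mitosis members, further replication and mitosis genes, and all protein-coding genes; the number over a bar is the count of genes. E2F letters are most frequent in the replication bars (15 of 24 members) and CHR letters in the mitosis bars (7 of 8 members).

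For the replication side, 3 promoters with several E2F matches that lie partly in peaks of both replicates show what these stretches look like. They run 5′ to 3′ on the gene's strand, and capitals mark E2F and CCAAT letters. On the opposite strand the E2F letters read GCGGGAA or GCGCCAA and CCAAT reads ATTGG. Positions count from the first transcribed base as 0. The Mcm6 stretch is chr1:128359709-128359820 (minus strand), the Mcm5 stretch chr8:75109339-75109497 (plus strand) and the Pola1 stretch chrX:93632182-93632330 (minus strand).
Mcm6: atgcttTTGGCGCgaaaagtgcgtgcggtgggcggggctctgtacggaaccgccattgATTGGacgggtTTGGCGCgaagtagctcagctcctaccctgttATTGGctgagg
Mcm5: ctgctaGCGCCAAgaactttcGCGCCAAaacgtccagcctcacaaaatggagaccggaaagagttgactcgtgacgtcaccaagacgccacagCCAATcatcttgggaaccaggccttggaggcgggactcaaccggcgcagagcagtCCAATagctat
Pola1: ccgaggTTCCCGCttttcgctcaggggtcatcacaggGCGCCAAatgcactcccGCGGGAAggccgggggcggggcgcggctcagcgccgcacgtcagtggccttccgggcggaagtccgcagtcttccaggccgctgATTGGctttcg
In Mcm6, E2F letters at −109 and −46 alternated with CCAAT boxes at −57 and −14, and the site at −46 lay in peaks of both replicates. Mcm5 had E2F letters at −164 and −149, of which the latter lay in both peaks, and CCAAT at −77 and −22 in the stretch shown. The Pola1 stretch held 3 E2F matches, at −169, −138 and −121, all in peaks of both replicates.

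For the mitosis side, 4 promoters that hold CCAAT and CHR letters are shown in the same way, with capitals for E2F, CCAAT and CHR. On the opposite strand TTTGAA reads TTCAAA, and TTCGAA reads the same on both. The stretches are chr10:69352950-69353126 for Cdk1, chr11:99024201-99024422 for Top2a, chr7:135716434-135716573 for Mki67 and chr9:70421565-70421727 for Ccnb2, all on the minus strand.
Cdk1: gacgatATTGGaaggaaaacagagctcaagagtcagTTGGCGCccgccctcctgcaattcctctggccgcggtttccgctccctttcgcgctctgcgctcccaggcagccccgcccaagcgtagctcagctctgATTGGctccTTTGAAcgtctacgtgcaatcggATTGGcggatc
Top2a: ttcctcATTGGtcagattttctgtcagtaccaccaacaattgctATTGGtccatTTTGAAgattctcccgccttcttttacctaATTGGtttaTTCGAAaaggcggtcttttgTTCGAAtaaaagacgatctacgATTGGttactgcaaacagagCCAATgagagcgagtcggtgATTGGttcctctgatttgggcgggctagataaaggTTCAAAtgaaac
Mki67: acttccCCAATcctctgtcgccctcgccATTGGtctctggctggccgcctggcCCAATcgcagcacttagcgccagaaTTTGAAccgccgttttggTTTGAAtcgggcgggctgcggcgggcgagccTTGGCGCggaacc
Ccnb2: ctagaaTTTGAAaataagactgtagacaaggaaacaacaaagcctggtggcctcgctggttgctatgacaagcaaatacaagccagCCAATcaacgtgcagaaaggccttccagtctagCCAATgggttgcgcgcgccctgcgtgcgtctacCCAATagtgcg
In Cdk1 the CHR letters at −71 followed a CCAAT box at −80, and both lay in peaks of both replicates; a further CHR match was at −15. Top2a had 6 CCAAT boxes and 4 CHR matches, of which those at −179, −140 and −120 lay in both peaks. Mki67 had CCAAT boxes at −188, −166 and −141, CHR letters at −116 and −98 and E2F letters at −67, and the last lay outside the peaks of both replicates. Ccnb2 had 3 CCAAT boxes at −87, −54 and −21, each in both peaks, and its CHR matches at −167 and 4 were not in peaks of both. In Bub1, Plk1 and Aurka the CHR letters began after the start site, at 14, 30 and 32. In Ccnb1 the E2F letters at −102 overlapped the CCAAT box at −99.

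Counted by site, 11 of 26 E2F matches of replication genes lay in peaks of both replicates, in 9 genes, as did 19 of 32 CCAAT boxes, in 11 genes. Overlapping E2F matches on opposite strands counted separately, in Mcm3 at 39 and 42 and in Rfc1 at 27 and 30, all outside the peaks. In mitosis genes 18 of 22 CCAAT boxes, in 8 genes, and 6 of 13 CHR matches, in 4 genes, lay in peaks of both. The peaks of both replicates covered 35.5% of the window bases of replication genes and 46.7% of those of mitosis genes. The median position was −27.5 for E2F matches of replication genes, and −71 for CHR and −79 for CCAAT in mitosis genes. With 100 bp on each side of the centre of the highest peak of replicate 1 as the window, E2F letters stood in 11 of 24 replication genes. CHR letters stood in 7 of 8 mitosis genes. Among the genes in the table with promoter peaks in both replicates, the shares in such windows were 9.80% for E2F and 6.27% for CHR.

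**Figure D4:**
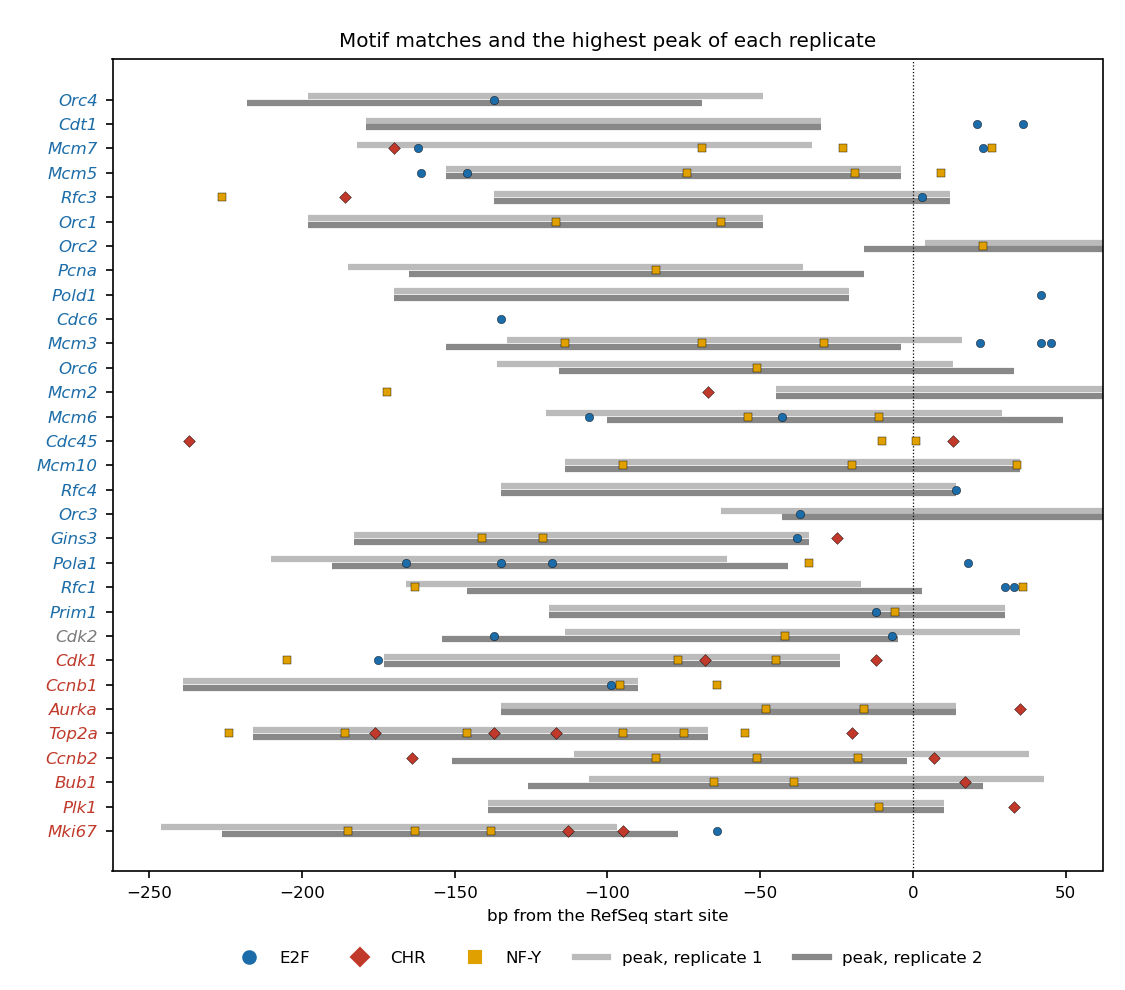
Positions of E2F, CHR and NF-Y (CCAAT) matches and of the highest peak of each replicate (grey bars), in bp from the RefSeq start site, for the 31 members with a match (1 window a gene; names in blue are replication genes, grey S-phase entry, red mitosis). CCAAT boxes of mitosis genes lie mostly under the bars (18 of 22 in peaks of both replicates), and CHR matches less so (6 of 13).

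Sp letters stood in 18 of 24 replication genes and 7 of 8 mitosis genes, against 51% of all promoters and 68% of those with peaks in both replicates. ETS letters stood in 11 of 24 replication genes (45.8%) and 2 of 8 mitosis genes, against 13.4% of all promoters and 18.2% of those with peaks in both. An E2F match TTCCCGC followed by CC also holds an Sp match on the opposite strand. NRF1 letters stood in 0 of 34 members, against 1.53% of all promoters and 2.16% of those with peaks in both. Orc5, Rfc5 and Ccne1 held no E2F, CHR or CCAAT letters in their windows. Cdk2 held E2F letters and a CCAAT box.

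The same letters were counted in lists of further genes of both processes. Among 29 other replication genes with a promoter in the table, 19 held E2F letters (65.5%) and 5 CHR letters (17.2%). Among 29 other mitosis genes, 4 held E2F letters (13.8%) and 22 CHR letters (75.9%), and 18 held both CCAAT and CHR letters, against 2 of the 29 other replication genes. With these letters the order between the classes was the same in the lists as in the members.

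Start sites of a second protein-coding gene lay close by for 11 members. Within 1000 bp and on the opposite strand, 9 of 30 replication genes and 1 of 10 mitosis genes had one, against 12.3% of all protein-coding genes and 22.8% of those in CpG deciles 9 and 10. The partners of replication genes were Vps35 for Orc6 (11 bp), Rars2 for Orc3 (13 bp), Mbd5 for Orc4 (26 bp), Prpf38a for Orc1 (87 bp), Pxmp2 for Pole (120 bp), Ufd1 for Cdc45 (140 bp), Ap4m1 for Mcm7 (160 bp), Prkdc for Mcm4 (466 bp) and Abhd12 for Gins1 (659 bp). Of the 6 origin recognition genes, 4 were thus paired. Aurka had Cstf1 (146 bp), and Cdk2 had Pmel (149 bp). Cdc45 and Orc6 overlap their partners, and the other pairs are head to head. A peak between 2 such start sites counts for both genes, and the data do not assign it to either. With genes of any kind counted, 15 of 30 replication and 2 of 10 mitosis genes had a partner, against 22.7% of all protein-coding genes and 39.2% of those in CpG deciles 9 and 10.

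Away from promoters most members had 1 region or none, and Mki67 had many. Distal regions, open in both replicates and more than 500 bp from every start site, numbered 107430, and 137 of them had a member's start site as the nearest protein-coding one. They were 53 for replication genes, 75 for mitosis genes and 9 for the S-phase entry genes. The median was 1 region a member, against 2 over all protein-coding genes, and 12 of 43 members had none. At least 1 region was found for 31 members, against 68.7% of all protein-coding genes. The median stretch of genome nearest to a member was 32.6 kb, against 45.0 kb over all genes. The median density over members was 3.54 regions per 100 kb of that stretch, against 3.50 over all genes, and the pooled density was 4.88 against 3.94.

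Mki67 held 57 of the 75 regions of the mitosis genes. All 57 lay upstream, between 7529.5 and 578300 bp away, 45 of them more than 100 kb away and 45 between genes, and 0 lay in Mki67 itself. Their scores had medians of 70 in replicate 1 and 42 in replicate 2. With start sites of genes of any kind counted, 1 of the 57 kept Mki67 as its nearest gene, and 20, 14 and 11 went to the unnamed gene models Gm36737, Gm9341 and Gm36431. Without Mki67, an alternative chosen after its count was seen, the other 9 mitosis genes had 18 regions, fewer than the 53 of the replication genes. The order of the class totals also turned with regions limited to the gene body or 50000 bp, 50 for replication and 24 for mitosis genes. It turned as well with start sites of any kind, 28 and 10. These totals are over 30 replication genes and 10 mitosis genes (9 without Mki67), so their order depends on class size. Per 100 kb of nearest genome the pooled density was 3.05 in replication genes, 7.80 in mitosis genes (5.34 without Mki67) and 3.94 over all protein-coding genes. The order of these pooled densities did not turn without Mki67. The median density over genes differed less, with 3.03 in replication genes, 3.61 in mitosis genes and 3.50 over all protein-coding genes.

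**Figure D5:**
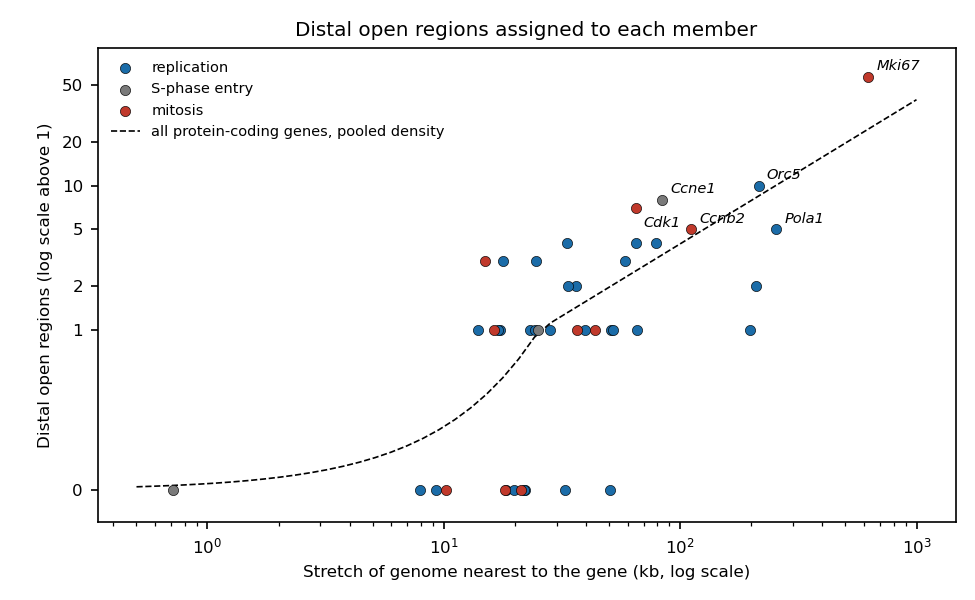
Number of distal open regions assigned to each member against the length of genome nearest to it in kb (both axes logarithmic, the vertical one linear below 1); the dashed line is the pooled density of all protein-coding genes, 3.94 per 100 kb. Mki67 stands at the upper right with 57 regions, and 12 members lie at 0.

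The next members by count were Orc5 with 10 regions, Ccne1 with 8, Cdk1 with 7, Ccnb2 and Pola1 with 5 each, and Gins2, Mcm5 and Rfc1 with 4 each. All 5 regions of Pola1 lay in its own introns and were weak, with scores of at most 43 and 41. The 4 regions of Rfc1 also lay in its own gene, with scores of at most 70 and 36. Those of Gins2 lay outside it, in introns of a neighbouring gene model, with scores of at most 85 and 64. Of the 5 regions of Ccnb2, 4 lay in introns, and the highest, with scores of 114 and 97, lay in Myo1e.

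A mean percentile of 90 or more was reached by 15 of 137 distal regions of the members (10.9%), against 6.64% of all distal regions. They were 3 of 53 regions of replication genes, 11 of 75 of mitosis genes, 6 of them of Mki67, and 1 of 9 of the S-phase entry genes. The highest was assigned to Ccne1, at chr7:38084996-38085145, between genes and 14298.5 bp from its start site, with scores of 148 and 131. These were above the scores of the Ccne1 promoter, 142 and 115. Aurkb had 3 regions between 3826.5 and 5306.5 bp upstream, with scores of 126, 119 and 101 in replicate 1 and 110, 101 and 108 in replicate 2. The highest of the 3 in each replicate was above the Aurkb promoter, at 125 and 99. Mcm5 had its nearest region 838.5 bp from the start site, at chr8:75108656-75108805, with scores of 108 and 94. The highest region of Orc5 was in an exon of its own gene, with 112 and 89, and that of Cdk1 was between genes, with 115 and 86.

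The 2 classes differed in where their regions lay. Of the 53 regions of replication genes, 9 were exonic, 30 intronic and 14 intergenic, and 27 were inside the gene they were assigned to. Of the 75 regions of mitosis genes, 1 was exonic, 16 intronic and 58 intergenic, and 2 were inside their own gene, a division set largely by Mki67 with its 45 intergenic regions. Over all distal regions the shares were 7.70% exonic, 48.9% intronic and 43.4% intergenic. The median distance to the start site was 12580.5 bp for replication genes and 216670 bp for mitosis genes, against 26071 bp over all distal regions. The mitosis median was also set largely by Mki67, which held 57 of the 75 regions, 45 of them more than 100 kb away. Among the other mitosis genes the farthest region, of Ccnb2, lay 69516.5 bp away.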

How the data were processed

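Peaks and hotspots were called by the authors for each library separately from filtered alignments on mm10, with replicates not pooled, per the labels and the deposited file list. Aligner, caller and threshold were not given in the sources used here. The deposited peak tables hold a score per peak (1 to 150), whose scaling is not stated. The deposited hotspot tables hold a −log10 q, capped at 100 by the authors.

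The annotation was GENCODE M21, of the same build. For each gene the highest-scoring peak with any base within 500 bp of a start site was taken in each replicate, and its mid-rank percentile was computed over that replicate's list. For distal regions the peaks of both lists were merged (1 bp of overlap), stretches with a peak of each replicate were kept, and each was assigned to the closest start site of a protein-coding gene. The self-made programs were tested on simulated data. Python 3.11.15, numpy 2.4.6, pandas 2.3.3, scipy 1.17.1 and pysam 0.24.0 were used.

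No test was run. The members and lists were chosen with earlier results of these data known. Members were named by role: the highest and lowest of each role by mean percentile, the 10 with the most distal regions, and all paired neighbours; the other members and regions were added after their values were seen. A gene that the naming rule would give is not reported here. Alternatives covered the peak threshold, windows, start sites, hotspots, list length, each replicate alone, class membership, the assignment of distal regions and the motif letters.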

Additional observations from a re-analysis of the deposited data

How the results depend on the processing

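Over the alternatives, 72 values were labelled as close to those reported and 19 as moved. Counts were labelled close within a set ratio, and medians within the standard deviation of the 2 replicates' values. Densities per 100 kb, in a different unit, were labelled as moved without a comparison. Counts for changed classes were set against those of the original class. The tally is therefore only a description and does not measure robustness. The order of the classes turned for total counts of distal regions and for shares of E2F letters. With hotspots the median percentile was 82.8 in replication and 82.8 in mitosis genes, a difference of 0, because all reached the cap. With the mean of all peaks of a promoter the medians were 85.8 and 81.3, a difference of 4.58. With 1 replicate left out, the median ranged from 98.1 to 98.7 in replication genes and from 96.8 to 98.1 in mitosis genes, and their difference from 0.622 to 1.30. Distal regions moved most. They numbered 29 for replication and 47 for mitosis genes with scores at or above the list median, and 28 and 10 with start sites of any kind, which turned the order of the totals. With 1 replicate left out they ranged from 75 to 102 for replication and from 89 to 145 for mitosis genes. The order of the totals also turned within the gene body or 50000 bp, with 50 regions for replication and 24 for mitosis genes, and without Mki67, with 53 and 18, an alternative chosen after seeing the data. The totals are over classes of unequal size, 30 replication and 10 mitosis genes. The pooled values per 100 kb were 3.05 and 7.80, and 5.34 in mitosis genes without Mki67, so the order of the densities did not turn there. The median densities over genes were 3.03 and 3.61. With the shorter E2F letters 21 of 24 replication and 8 of 8 mitosis genes held a match, against 68.6% of all promoters, and the order turned. CHR letters stood in 3 of 24 replication genes around the peak centre and in 3 with TTTGAA alone. No paired analysis was possible because all samples belong to 1 group. Unknown read depth limits every value, and its part in the shorter list of replicate 2 was not tested. The motif counts of mitosis genes rest on 8 promoters.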

Other observations

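Further genes of the cell cycle were counted in the same way. Promoter peaks in both replicates were found for 35 of 35 other replication genes, 35 of 35 other mitosis genes, 20 of 20 E2F, RB and DREAM regulators and 12 of 12 genes of nucleotide supply, against 66.3% of all protein-coding genes. The median of the mean percentile was 97.8, 97.9, 97.7 and 98.7 in these lists, against 96.3 over all open promoters.

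The highest other replication genes were Rpa1, of the single-strand binding protein (scores of 144 and 131), Dbf4, the activator of the Cdc7 kinase (145 and 129), and Pole3 (138 and 138). The highest other mitosis genes were Cenpf, a kinetochore protein (145 and 135), Ncapd2, a condensin subunit (143 and 136), and Nusap1, a spindle protein (143 and 136). Among the regulators Lin37, of the DREAM complex, scored 145 and 136, E2f3 147 and 133, and Rbbp4 143 and 135. In nucleotide supply, Rrm1, the large subunit of ribonucleotide reductase, scored 146 and 138, and Dctpp1 147 and 131.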
